A study of Rattus norvegicus with 10 samples.

Results

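The genes described here are 10 genes of mitosis, the step in which a cell divides its copied chromosomes: Cdc2 (now named Cdk1), Ccna2, Ccnb1, Ccnb2, Plk1, Aurka, Aurkb, Bub1, Bub1b and Birc5. They were found as every non-control feature (60-base probe) whose gene name in the array files was one of these, which gave 14 of the 41012 features on the array. The list was chosen by the lower signals of these genes on later days in the same arrays, so differences between days are given below as a description and with no test. The messenger RNA came from milk whey of 3 dams of the inbred rat strain F344/N, dams 1 to 3, each sampled at d 2, at d 9 and at d 16 postpartum, with 1 array per dam and day, and from serum of the same 3 dams on d 21, mixed on 1 array. No treatment set the groups apart, since the days of lactation were the comparison, but all dams had been separated from their litters, given oxytocin and anesthetized before milking. Whey is milk from which centrifugation has removed cells, fat and casein. The labelled cRNA of an array was made from 100 ng of total RNA. Thus, the values compare the makeup of equal amounts of RNA, not amounts per volume of milk.

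Cyclin-dependent kinase 1 drives a cell into mitosis once it has bound a cyclin of the A or B type, and the cell leaves mitosis when the anaphase-promoting complex has these cyclins destroyed. Polo-like and aurora kinases build the spindle and correct its attachments, and the Bub proteins hold back anaphase until every chromosome is attached. These messages are made mainly in late interphase and mitosis and are rare in resting cells, so they are widely used as signs of dividing cells. In rodents the mammary epithelium grows through pregnancy and into early lactation.

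Promoters of such genes are known for the cell cycle homology region, read as TTTGAA, and for CCAAT boxes. The RefSeq promoter table (GRCr8, 250 bases before to 50 after the start) held 8 of the 10 genes, without Ccna2 and Aurkb. Both motifs were searched on both strands. The 5 promoters below are shown because they held CCAAT, 4 of them together with TTTGAA; capitals mark every match of either motif, on the strand shown or on the other (where CCAAT reads ATTGG).
Cdk1, chr20:19265043-19265342, plus strand: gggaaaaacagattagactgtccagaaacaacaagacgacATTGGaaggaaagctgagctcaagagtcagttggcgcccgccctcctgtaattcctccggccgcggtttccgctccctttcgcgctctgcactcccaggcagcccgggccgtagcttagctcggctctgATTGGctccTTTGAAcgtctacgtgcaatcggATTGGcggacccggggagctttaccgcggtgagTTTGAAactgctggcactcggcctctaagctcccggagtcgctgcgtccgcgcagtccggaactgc
Ccnb1, chr2:33655176-33655475, minus strand: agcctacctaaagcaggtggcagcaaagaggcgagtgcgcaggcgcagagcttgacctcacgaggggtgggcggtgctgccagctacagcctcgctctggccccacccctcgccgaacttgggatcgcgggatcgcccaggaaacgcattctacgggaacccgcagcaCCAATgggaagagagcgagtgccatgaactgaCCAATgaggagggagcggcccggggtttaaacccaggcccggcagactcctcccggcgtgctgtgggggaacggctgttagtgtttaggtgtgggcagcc
Ccnb2, chr8:79981609-79981908, minus strand: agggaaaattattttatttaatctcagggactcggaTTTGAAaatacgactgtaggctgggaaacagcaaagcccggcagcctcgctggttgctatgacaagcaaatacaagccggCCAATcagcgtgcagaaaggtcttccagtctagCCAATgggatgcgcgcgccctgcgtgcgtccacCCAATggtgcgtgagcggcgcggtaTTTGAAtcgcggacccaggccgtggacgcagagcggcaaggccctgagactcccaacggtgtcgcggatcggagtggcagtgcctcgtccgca
Plk1, chr1:186147408-186147707, plus strand: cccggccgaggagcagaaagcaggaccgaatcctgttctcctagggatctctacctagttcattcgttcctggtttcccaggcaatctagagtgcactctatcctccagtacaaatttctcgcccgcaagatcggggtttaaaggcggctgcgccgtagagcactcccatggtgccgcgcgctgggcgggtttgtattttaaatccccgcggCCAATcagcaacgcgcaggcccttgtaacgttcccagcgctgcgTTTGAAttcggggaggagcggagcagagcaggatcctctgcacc
Birc5, chr10:103571896-103572195, plus strand: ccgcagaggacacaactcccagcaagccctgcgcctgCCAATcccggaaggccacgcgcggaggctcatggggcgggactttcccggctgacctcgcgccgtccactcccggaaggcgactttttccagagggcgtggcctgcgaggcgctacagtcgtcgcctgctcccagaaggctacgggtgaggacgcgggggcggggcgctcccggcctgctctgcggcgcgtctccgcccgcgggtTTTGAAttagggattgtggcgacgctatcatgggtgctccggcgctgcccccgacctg

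TTTGAA was present in 5 of the 8 promoters (62.5%), those of Cdk1, Ccnb2, Plk1, Bub1b and Birc5, and in 18.3% of all 33469 promoters of the table. CCAAT was present in 5 of the 8, and in 37.5% of all promoters. Both stood together in 4 of the 8 against 7.41% of all. No match of one motif overlapped a match of the other in these promoters. The Ccnb2 promoter carried CCAAT at -134, -101 and -68 and a TTTGAA at -43, counted in bases from the start to the first base of each match. That of Cdk1 carried the other-strand form of CCAAT at -210, -81 and -49. The windows of Aurka and Bub1 held neither set of letters, but only the start listed first for each gene was searched. Whether these windows hold the promoter in use was not tested. A match describes the sequence and shows no binding.

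After quantile normalization all 10 genes were lower on d 9 than on d 2 and lower again on d 16, in each of the 3 dams, but when arrays were scaled to spike-in controls 7 of the 10 were higher on d 9 than on d 2. The median difference of the 10 genes on the log2 scale was -1.17 for d 9 against d 2, -2.82 for d 16 against d 9 and -4.17 for d 16 against d 2, whereas the median of all tested features was 0.11, -0.06 and 0.04. With Ccnb1, Bub1b and Birc5, which had no d 16 array well above background, set at their bounds, the median for d 16 against d 2 was -4.09. Among the other 7 genes the differences from d 2 to d 16 ran from -2.09 for Aurkb to -4.42 for Cdc2. A bound takes, per array, the higher of the feature's value and the dimmest feature well above background, after quantile normalization. Brighter features could still miss that flag, such as Aurka at 3.52 on d 16 of dam 1. Thus, folds given below as at least a value hold under this rule only and may be smaller. The 3 values of the later day lay below the 3 of the earlier day for 10 of 10 genes in each comparison. Among all tested features this was so for 14.6% (d 9 against d 2), 22.3% (d 16 against d 2) and 17.6% (d 16 against d 9). The counts for the 10 genes come from the values that chose them, and nothing is read from them.

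**Figure D1:**
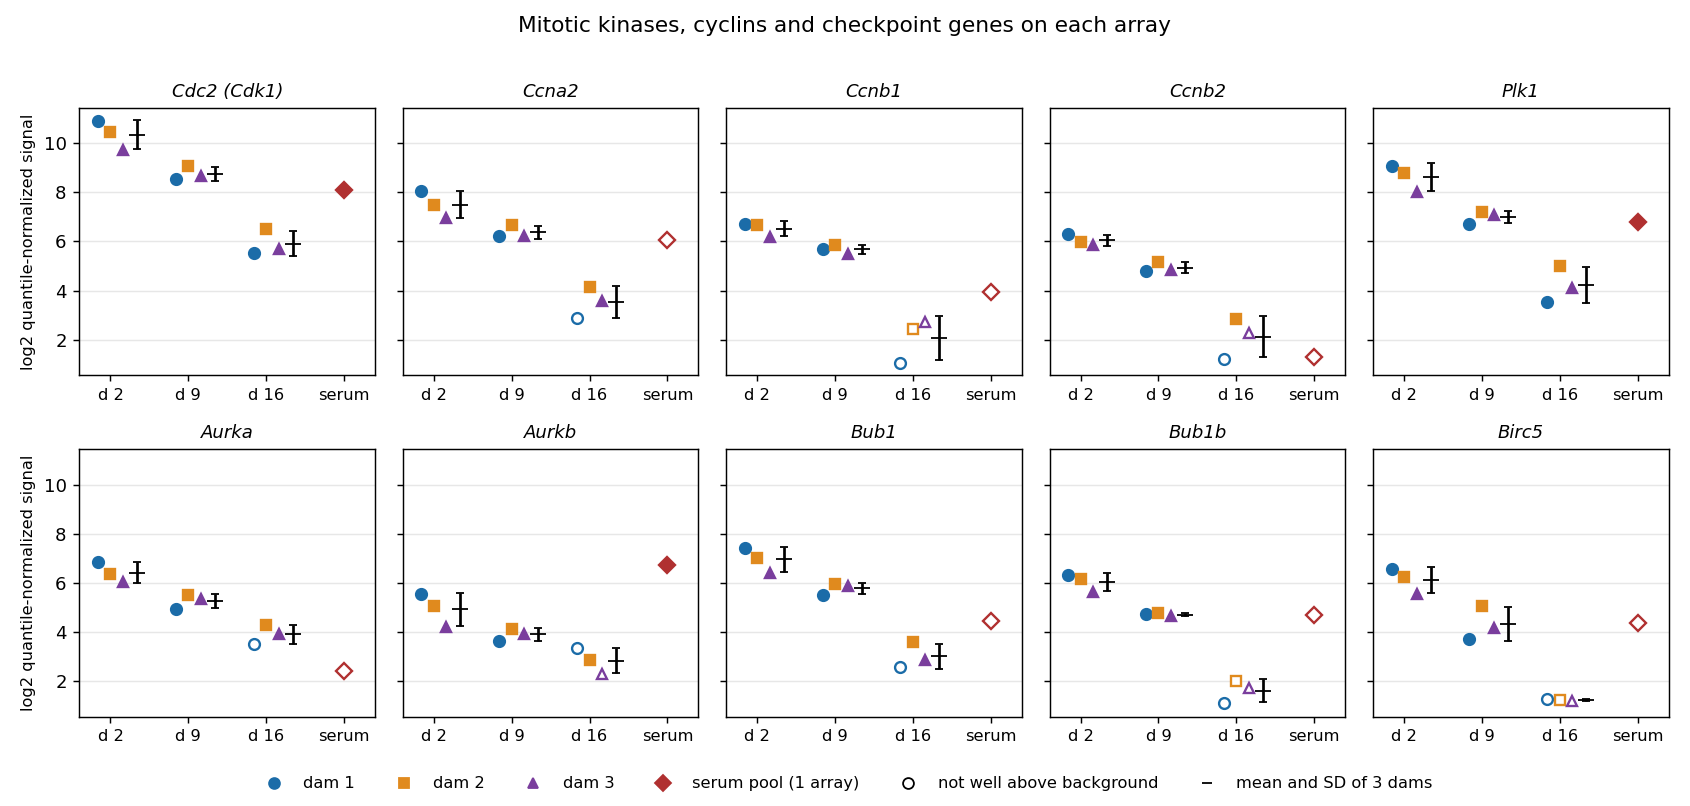
Log2 quantile-normalized signal (y axis) of the 10 genes on the 9 whey arrays by day and on the 1 serum array (x axis), each gene by 1 feature. Colours and shapes mark dams 1 to 3, open symbols a feature not well above background, and black bars the mean and SD of 3 dams. On this scale all 3 d 9 values lie below all 3 d 2 values and above all 3 d 16 values in every panel (with spike-in scaling 7 genes are above d 2 on d 9), while the serum value of Aurkb (6.73) lies above all of its whey values.

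These groups rest on 3 slides. The d 16 arrays and serum shared a slide that was scanned on another day than the other 2 slides, so for d 16 the slide, the scan day and the day postpartum cannot be told apart. The d 9 arrays shared a slide with d 2 of dam 3, and within it the median difference from d 2 to d 9 was -0.84. The 75th percentile of the processed signal ran from 12.5 to 83.2 over the whey arrays and was 4.11 for serum. In fluid of this kind, fewer cells of a type feeding RNA into the milk and less of these messages per cell cannot be told apart.

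Cdc2, the kinase that starts mitosis, was measured at chr20:20043755-20043814 of rn4, the build of the array files. Its log2 signals on d 2 were 10.89, 10.43 and 9.71 in dams 1, 2 and 3. On d 9 they were 8.52, 9.06 and 8.66, and on d 16 they were 5.55, 6.51 and 5.69. It was well above background on all 10 arrays, and its means were 10.34 ± 0.60, 8.75 ± 0.28 and 5.92 ± 0.52 (SD, n = 3). The d 2 mean was 21.5-fold that of d 16 and 3.02-fold that of d 9. Its feature is shown because it gave a value well above background on every array.
Cdc2: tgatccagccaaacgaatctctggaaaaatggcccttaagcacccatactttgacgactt

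Ccna2 encodes cyclin A2, a partner of Cdk2 in S phase and of Cdk1 in early mitosis. At chr2:123063059-123063118 it gave log2 signals of 8.05, 7.48 and 6.97 on d 2, 6.23, 6.69 and 6.23 on d 9, and 2.89, 4.16 and 3.59 on d 16. On d 16 it was well above background in dams 2 and 3 but not in dam 1. The d 2 mean was 15.5-fold the d 16 mean. Another feature of Ccna2 passed the filter on low signals through d 9 of dam 3 alone and was not well above background on any d 16 array, so it gave a bound, with d 2 at least 6.34-fold above d 16.

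Ccnb1 and Ccnb2 encode the B-type cyclins that bind Cdk1 in mitosis. Ccnb1 (chr2:31574809-31575048) had log2 signals of 6.72, 6.66 and 6.18 on d 2 and 5.69, 5.87 and 5.50 on d 9. The difference of -0.84 was the smallest of the 10 genes for this interval after quantile normalization, and with spike-in scaling Ccnb1 was 0.63 higher on d 9. On d 16 its values were 1.06, 2.44 and 2.71, and no d 16 array was well above background. By the bound rule its d 16 signal was at least 19.1-fold lower than that of d 2. Against d 9 it was at least 10.7-fold lower. On d 16 of dam 1 Aurka at 3.52 and Aurkb at 3.37 were not well above background, so these folds may be smaller.

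Ccnb2 (chr8:74896165-74896224) gave 6.30, 5.99 and 5.86 on d 2, 4.79, 5.18 and 4.84 on d 9, and 1.23, 2.87 and 2.30 on d 16. On d 16 the feature was well above background in dam 2 alone. The means of d 2 and d 16 differed 15.1-fold. The spread between dams on d 16 (SD 0.88 for Ccnb1 and 0.83 for Ccnb2) was wider than on d 2 (0.29 and 0.22), at signals near or below the background limit.

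**Figure D2:**
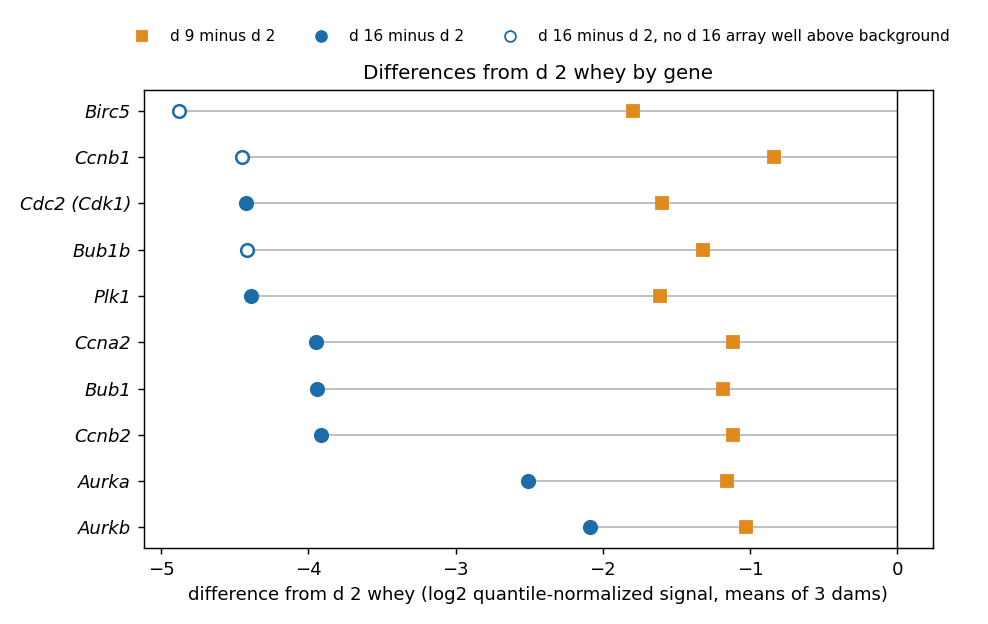
Difference of d 9 (squares) and d 16 (circles) from d 2 whey on the log2 scale (x axis, means of 3 dams) for each of the 10 genes (y axis), ordered by the d 16 difference. Open circles mark Birc5, Ccnb1 and Bub1b, whose features were not well above background on any d 16 array. For these 3 the drawn difference has only a bound, and they have no order among the largest. Among the closed circles Cdc2 lies lowest (-4.42), and Aurka (-2.51) and Aurkb (-2.09) lie nearest to 0. All d 9 differences are below 0 here, and 3 of 10 are with spike-in scaling.

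Plk1, polo-like kinase 1, acts in mitotic entry, centrosome maturation and cytokinesis. Its first feature (chr1:181012641-181012700) gave 9.08, 8.77 and 8.004 on d 2, 6.73, 7.21 and 7.07 on d 9, and 3.54, 5.02 and 4.12 on d 16. Like Cdc2 it was well above background on all 10 arrays, and its d 2 mean was 21.0-fold its d 16 mean. A second feature (chr1:181012298-181012357) gave close to the same differences, -1.59 for d 9 and -4.50 for d 16 against d 2, beside -1.61 and -4.39 for the first. On d 16 that second feature was well above background in dam 2 alone. Both are shown because they are different stretches of the same message with like differences between days.
Plk1, first feature: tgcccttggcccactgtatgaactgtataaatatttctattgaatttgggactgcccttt
Plk1, second feature: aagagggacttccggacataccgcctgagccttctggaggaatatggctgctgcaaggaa

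Aurka, aurora kinase A of the centrosome and spindle poles, and Aurkb, aurora kinase B of the chromosomal passenger complex, had the smallest differences between d 2 and d 16. Aurka (chr3:163271721-163271780) gave 6.87, 6.36 and 6.04 on d 2, 4.94, 5.51 and 5.35 on d 9, and 3.52, 4.30 and 3.92 on d 16. It was well above background in dams 2 and 3 on d 16, and the d 2 mean was 5.68-fold the d 16 mean. Aurkb (chr10:55801393-55801534) gave 5.54, 5.05 and 4.22 on d 2, 3.65, 4.15 and 3.95 on d 9, and 3.37, 2.87 and 2.31 on d 16. Its d 16 signal was well above background in dam 2 alone, and its d 2 mean was 4.25-fold its d 16 mean. The lowest d 2 value of Aurkb (4.22, dam 3) was close to its highest d 9 value (4.15, dam 2), so the separation of these days was narrow.

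Bub1 and Bub1b (BubR1) encode kinase family proteins of the spindle checkpoint, which delays anaphase. Bub1 (chr3:115324635-115324694) gave 7.44, 7.02 and 6.42 on d 2, 5.51, 5.96 and 5.87 on d 9, and 2.59, 3.60 and 2.87 on d 16, where dams 2 and 3 were well above background. Its d 2 mean was 15.4-fold its d 16 mean. Bub1b at chr3:105115998-105116057 gave 6.31, 6.17 and 5.63 on d 2, 4.73, 4.78 and 4.64 on d 9, and 1.11, 2.03 and 1.72 on d 16. Its d 9 values had the smallest spread of the genes on that day (SD 0.07). No d 16 array was well above background, which gave a bound, with d 2 at least 18.8-fold above d 16.

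Bub1b had 3 features, which did not give the same values. The second, 327 bases from the first, gave log2 signals of 4.79, 4.49 and 4.04 on d 2, and its d 2 mean was at least 6.23-fold its d 16 level. It passed the filter on low signals through d 9 of dam 3 alone. In serum it read 5.80, above all of its whey values but not well above background, and gave no bound for d 2 over serum. The last, 38322 bases from the first, was not well above background on any of the 10 arrays, with values of 0.90 to 1.10, and was the 1 feature of the 14 that was not tested. The sequences are shown because 2 of the features gave signals well above background and 1 did not.
Bub1b, first feature: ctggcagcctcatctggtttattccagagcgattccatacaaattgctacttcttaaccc
Bub1b, second feature: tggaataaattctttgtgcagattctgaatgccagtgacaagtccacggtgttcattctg
Bub1b, distant feature: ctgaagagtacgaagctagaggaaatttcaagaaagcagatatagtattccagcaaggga

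Birc5 encodes survivin, which sits with Aurkb in the chromosomal passenger complex. The array files give its feature no genome position.
Birc5: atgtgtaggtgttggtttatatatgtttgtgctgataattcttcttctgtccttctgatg
It gave 6.56, 6.26 and 5.53 on d 2, 3.72, 5.08 and 4.17 on d 9, and 1.27, 1.23 and 1.22 on d 16. The dams differed more on d 9 (SD 0.69) than for any other of the genes. No d 16 array was well above background, so that the d 16 level of Birc5 was at least 22.6-fold below d 2 and at least 6.53-fold below d 9.

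After quantile normalization the genes ran in parallel among dams as well as among days. On d 2, dam 1 had the highest and dam 3 the lowest value for 10 of 10 genes. On d 9, dam 2 had the highest value for 10 of 10, and dam 1 the lowest for 8. On d 16, dam 2 was highest for 7 and dam 1 lowest for 8. The order of dams depended on the scaling. With spike-ins the median of the 10 genes on d 2 was lowest in dam 1 (-7.33, against -6.91 and -6.93 in dams 2 and 3). On d 9 it was then highest in dam 3 (-5.54, against -7.75 and -6.59 in dams 1 and 2). Over the 9 whey arrays, after quantile normalization, the correlation between pairs of the 10 genes (45 pairs) ran from 0.80 to 1.00 with a median of 0.98. After the mean of each day had been subtracted it ran from -0.26 to 0.98 with a median of 0.78. The arrays share dams, slides and their normalization, and the correlations are a description.

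The direction of the step from d 2 to d 9 depended on how arrays were scaled, while d 16 was lower under each scaling and background correction run, by amounts that varied. Before any scaling, the median processed signal of the 10 genes was 55.3, 79.7 and 84.7 on the d 2 arrays of dams 1 to 3, and 34.1, 96.2 and 159 on the d 9 arrays. These ranges overlapped, with dam 1 lower and dams 2 and 3 higher on d 9. On d 16 the median signal was 6.27, 15.1 and 8.91, below every d 2 and d 9 array. With scaling by the 9 spike-in control probes instead, all tested features had a d 9 median 1.52 above d 2, and the median of the 10 genes was 0.29 higher on d 9, with 3 of 10 lower (Cdc2, Plk1 and Birc5). Relative to the median of all tested features the median of the 10 genes was 1.23 lower on d 9 with spike-ins and with 75th percentile scaling alike, since both shift all features of an array by 1 amount. From d 2 to d 16 the median difference was -3.67 with spike-ins and -4.25 with 75th percentile scaling. It was -1.09 with the normexp background correction with an offset of 50, which pulls dim signals together.

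**Figure D3:**
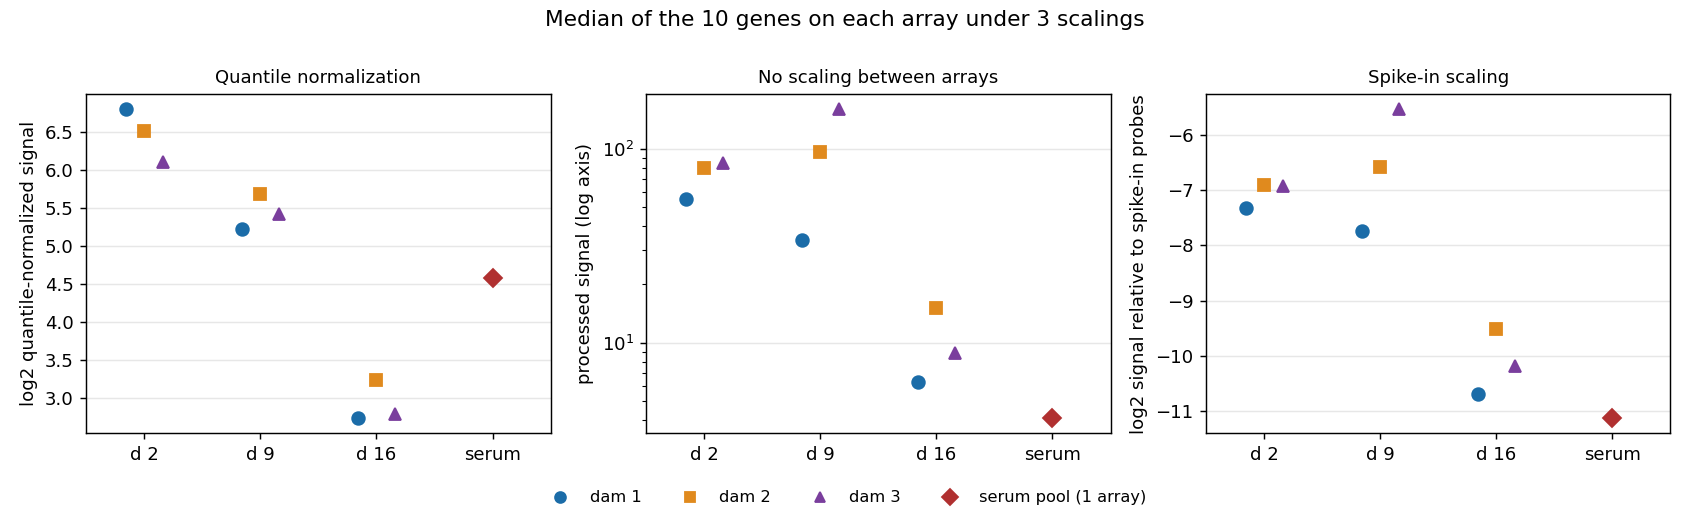
Median of the 10 genes on each array (y axis) by day and for serum (x axis), as log2 quantile-normalized signal, as unscaled processed signal on a log axis, and as log2 signal relative to spike-in probes. After quantile normalization the d 9 arrays (5.23 to 5.69) lie below the d 2 arrays (6.11 to 6.80), while the unscaled d 9 signals (34.1 to 159) span the d 2 signals (55.3 to 84.7), and d 16 is below both in each panel.

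In serum 3 of the 10 genes were well above background. Cdc2 had a log2 signal of 8.11, between its d 9 and d 16 whey values. Plk1 had 6.81, within its d 9 values (6.73 to 7.21). Aurkb had 6.73, higher than on any whey array. The other 7 genes were not well above background in serum. After quantile normalization the bound rule gave d 2 whey over serum from 2.50-fold (Bub1b, first feature) to 10.03-fold (Aurka). The dimmest feature well above background in serum was at 3.09, but Ccna2 at 6.05 was not well above background. These folds are therefore not firm lower limits. With 1 serum array there is no test and no spread.

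The comparison with serum also rested on the scaling. The serum array was the dimmest, and its unscaled signals were 26.8 for Cdc2, 12.6 for Plk1 and 12.03 for Aurkb, against whey signals of 42.6 to 1650, 10.7 to 528 and 6.13 to 49.5. Aurkb was 2.83 lower in whey than in serum after quantile normalization and 0.52 higher with spike-ins.

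Other genes of mitosis and the cell cycle were read from 9 lists of 179 genes, of which 151 had a feature and 111 were tested. From d 2 to d 16, 60 of the 111 fell and 5 rose with limma and Benjamini-Hochberg adjustment, when 12.4% of all tested features fell and 16.0% rose. Their median difference was -0.72, against 0.04 for all tested features. From d 2 to d 9, 22 fell and 2 (Nek7 and Spag5) rose, against 6.36% and 11.3% of all tested features, and with the slide as a fixed block limma called 0 of them (6 arrays). From d 9 to d 16, 22 fell and 1 (Ccnd2, not called with spike-in scaling) rose, against 0.855% and 0.564%. With the dam as a block the last comparison gave 12 that fell and 2 that rose. The d 9 to d 16 count was unstable when 1 array was left out, with 2 genes without d 16 of dam 3, 3 without d 9 of dam 2 or of dam 3, 5 without d 16 of dam 1, 11 without d 2 of dam 2 and 13 without d 9 of dam 1. From d 2 to d 9 the count was 8 without d 2 of dam 2, 11 without d 9 of dam 2 and 13 without d 9 of dam 1. The d 2 to d 16 count lay between 45 and 60 whichever array was left out. Under spike-in scaling 0 fell and 15 rose from d 2 to d 9 by the same limma test, and for d 16 against d 2 the counts were 25 and 0. With that scaling the median of all tested features was 1.52 higher on d 9 and 0.58 higher on d 16 than on d 2. The share of all tested features called is not given for it, so nothing is read from these counts.

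**Figure D4:**
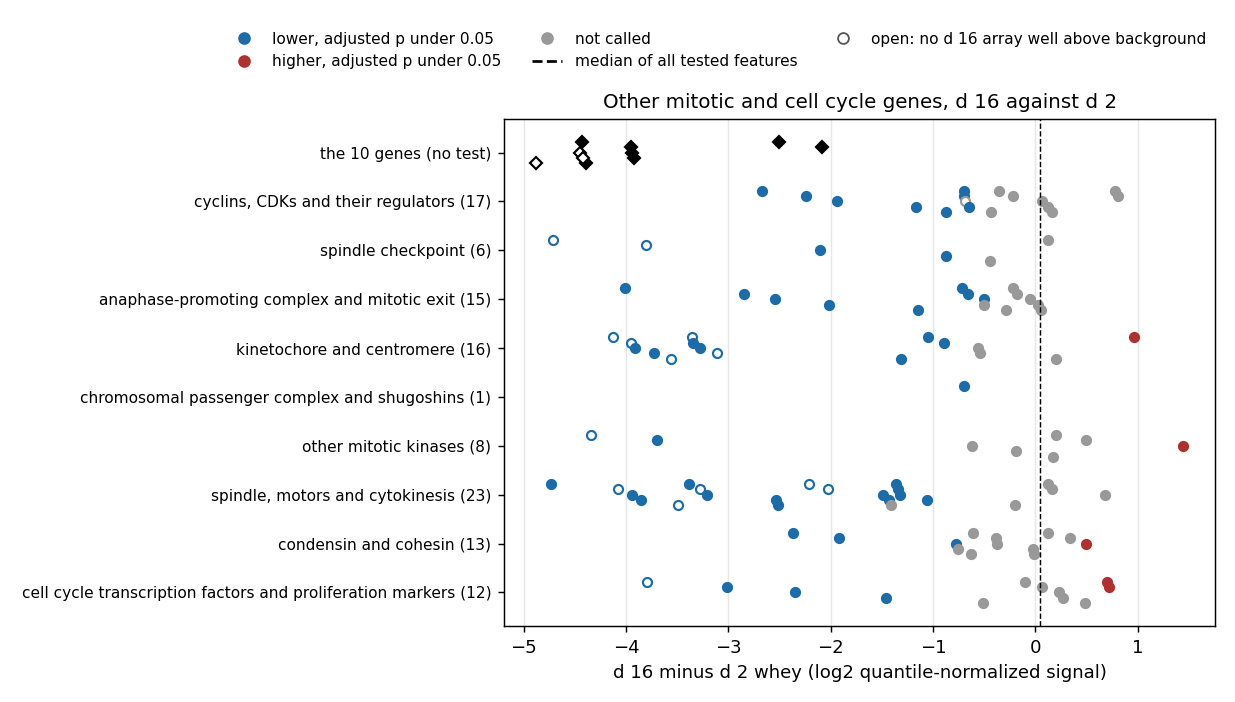
Difference of d 16 from d 2 whey (x axis, log2 quantile-normalized signal) for the 10 genes (black diamonds, no test) and for the tested genes of 9 lists of mitotic and cell cycle genes (circles, number of genes in parentheses). Blue and red mark genes called lower and higher by limma, grey those not called, open symbols those with no d 16 array well above background, and the dashed line the median of all tested features (0.04). The spindle gene Ect2 lies at -4.73 (well above background on 1 of 3 d 16 arrays), the kinetochore gene Spc24 at -3.91, and the lowest condensin or cohesin gene at -2.37. With spike-in scaling 25 genes of the lists are called lower and 0 higher, with no share of all tested features to set beside them.

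Among partners of the 10 genes, spindle checkpoint genes fell for 4 of 6 tested from d 2 to d 16. Ttk, the kinase that starts checkpoint signaling, was at least 23.0-fold higher on d 2, and Kntc1, which brings checkpoint proteins to the kinetochore, at least 11.4-fold. For Ttk limma tested the measured difference of -4.71 (adjusted p = 0.00079), not the bound. Its d 16 values in that test were not well above background on any array. Mad2l1 fell by 2.10 on the log2 scale. Bub3, the binding partner of Bub1 and Bub1b, fell by 0.87, while Zw10 (-0.44) and Mad2l1bp (0.12) were not called. Of the regulators of anaphase, 8 of 15 fell, among them Ube2c (-4.01), Pttg1 encoding securin (-2.84) and Cdc20 (-2.54). Of the 17 tested cyclins, CDKs and regulators 8 fell, among them Ccne1 (-2.67), Ccnd1 (-2.24) and Cks2 (-1.94). In the chromosomal passenger complex, Incenp, the scaffold of Aurkb and Birc5, was the 1 other gene tested and fell by 0.70 (SE 0.11, adjusted p = 0.0041 by limma). With spike-in scaling its difference was -0.12 and was not called (adjusted p = 0.95). Under that scaling Ttk, Kntc1, Ube2c and Pttg1 were called lower and no other gene of these 4 lists was, which left Mad2l1 (adjusted p = 0.23), Bub3, Cdc20 (0.083), Ccne1 (0.051), Ccnd1 (0.17) and Cks2 (0.30) without a call.

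Of kinetochore genes 12 of 16 fell. Spc24 fell by 3.91, Spc25 was at least 14.7-fold and Ska1 at least 10.7-fold higher on d 2, and Cenpb, a protein of centromere repeats, rose by 0.96. Of spindle, motor and cytokinesis genes 18 of 23 fell, among them Ect2 (-4.73) and Kif20a (-3.94), and Kif22 was at least 12.9-fold higher on d 2. Among 8 other mitotic kinases Pbk fell by 3.69, Melk was at least 17.7-fold higher on d 2 and Nek7 rose by 1.44. Condensin and cohesin genes fell for 3 of 13 (Ncapg2, Smc4 and Pds5b, -2.37 to -0.78), and Rad21 of cohesin rose by 0.49. Of cell cycle transcription factors and proliferation markers 4 of 12 fell, namely Mybl2 (at least 9.35-fold higher on d 2), Top2a (-3.02), Foxm1 (-2.35) and E2f1 (-1.46), and E2f3 (0.72) and Rb1 (0.70) rose. With spike-in scaling 9 of the 16 kinetochore genes, 8 of the 23 spindle genes, Pbk, Melk, Mybl2 and Top2a were called lower, while Foxm1, E2f1 and the condensin and cohesin genes were not, and none of the rises (Cenpb, Nek7, Rad21, E2f3 and Rb1) was called. On d 16 Ect2, Pbk, Top2a, Foxm1 and Ccne1 were well above background on 1 of 3 arrays, and Ube2c, Kif20a, Ncapg2, Smc4 and Cks2 on 2 of 3.

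Among the genes whose levels over the 9 whey arrays most resembled the mean course of the 10 genes (5339 candidates) were Racgap1, Spc24, Ttk, Rrm2, Cenpt, Cenpa, Melk, Cenpk and Aspm, with r from 0.9896 to 0.9966. Of these, all except Rrm2 were in the lists above. Racgap1, which acts in cytokinesis, had means of 6.34 ± 0.49, 5.32 ± 0.11 and 3.13 ± 0.33 (SD, n = 3) on d 2, d 9 and d 16.

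Markers of cells that could feed RNA into milk moved between d 2 and d 16 too. Among all tested features 12.4% fell and 16.0% rose between these days, and the counts of markers are a description. Of 10 luminal mammary epithelial markers, all tested, Krt8, Krt18 and Krt19 fell and the milk protein genes Csn2, Lalba and Wap rose, and the log2 of their summed signal went from 18.5 to 18.6 on d 2 to 19.4 to 19.5 on d 16. Of 7 tested macrophage markers C1qa, C1qb, C1qc, Cd68 and Lyz2 rose and Cd14 fell, with summed levels of 8.41 to 8.78 on d 2, 8.06 to 9.15 on d 9 and 9.70 to 9.75 on d 16, while Cd163 and Csf1r were not well above background on any whey array. Of 3 tested lymphocyte markers Cd3d and Cd3g rose, and Cd3e, Cd4, Cd8a and Cd79b were not well above background on any whey array. Summed over the 9 lymphocyte markers with a feature, tested or not, levels were 5.91 to 6.45 on d 2 and 7.16 to 7.64 on d 16. With spike-in scaling the 5 macrophage markers and Cd3d were still called higher, and none of Cd3g, Cd14, Pf4 and the luminal markers was called. Of platelet markers 1 was tested, Pf4, and fell. None of the 3 tested neutrophil, 5 myoepithelial and 1 endothelial markers was called (S100a9 of neutrophils was called higher with spike-in scaling), and 0 erythroid markers passed the filter. Csf3r, Cxcr2, Elane and Ltf of neutrophils, Pecam1, Tek, Vwf and Emcn of endothelium, and Alas2, Hbb, Klf1 and Epb42 of red cells were not well above background on any whey array. The part of these cells in the differences of the 10 genes was not tested.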

How the data were processed

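Whey of 3 dams on 3 days and 1 serum pool were measured on 10 arrays in the study. Groups and dams come from the sample titles, so a dam's 3 arrays are paired by label; deviations from day means correlated by -0.02 to 0.22 within a dam. The authors made the deposited intensity values with Agilent Feature Extraction 9.5.3.1, per the labels. The processed signal is background-subtracted and not scaled between arrays, and the deposited flags (well above background, outlier) are other values from that software. A deposited table with 10 per-sample columns whose names match no label was not used.

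Log2 processed signals of non-control spots were quantile normalized over 10 arrays, as in the study's methods. Outlier spots were dropped and the spots of a feature averaged. A feature was tested (16849 of 41012) if well above background with a signal over 20 on at least 1 whey array. Days were compared across all of these with limma 3.58.1 (R 4.3.3, lmFit and eBayes, 9 whey arrays, two-sided, Benjamini-Hochberg, 0.05). The test was run on simulated data with independent noise and no effect of slide, dam or scaling, so that run cannot bear on those. A gene with several features was read by the one well above background on most whey arrays, then the highest in mean signal. Where no array of a day was well above background, the fold is a bound against, per array, the higher of its value and the lowest feature well above background. Features brighter than this limit were at times not well above background, so such folds may be smaller.

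Named genes were the members, per list the 3 largest called falls from d 2 to d 16 well above background on d 2 and the largest such rise, and the 10 most like in course by Pearson r, of which 1 is not reported here. Bub3, Zw10, Mad2l1bp, E2f1, Rb1, Spag5, Ccnd2 and the markers fall outside this rule and were chosen after their values were seen. The members and lists were chosen with earlier results of these data known. Alternatives changed the scaling, background correction, filter, block, test and arrays used. Arrays number 3 per day, which limits precision. Promoters come from the RefSeq table of GRCr8, a different build from rn4, and figures were drawn with matplotlib.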

Additional observations from a re-analysis of the deposited data

How the results depend on the processing

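With spike-in scaling the median of the 10 genes was 0.29 higher on d 9 than on d 2, with Ccna2 at 0.36, Ccnb1 at 0.63, Ccnb2 at 0.32, Aurka at 0.29, Aurkb at 0.36, Bub1 at 0.29 and Bub1b at 0.10. The cause was not tested. The same scaling gave medians of -3.67 for d 16 against d 2 and -3.75 for d 16 against d 9, 0 other mitotic genes lower from d 2 to d 9 (15 higher) and 25 lower from d 2 to d 16. The share of all tested features called is not given for this or the other alternatives, so their counts have no baseline. Normexp gave medians of -0.55 (d 9 against d 2), -1.09 (d 16 against d 2) and -0.63 (d 16 against d 9), and 35 genes lower from d 2 to d 9. Within slide 2, which equals the fixed slide block, the d 9 median was -0.84, and 0 of the other genes were called with that block by limma on 6 arrays. Without 1 array at a time the medians ranged from -0.97 to -1.42, from -3.84 to -4.45 and from -2.52 to -3.13, and the counts lower were 8 to 29, 45 to 60 and 2 to 22. Replicate block (dam) pairing gave 24, 60 and 12 lower, and without the filter on dim features 11 were lower from d 9 to d 16. The Tukey-Kramer test of the study's methods gave 36 unadjusted from d 9 to d 16. After adjustment it gave 4 (d 9 against d 2), 40 (d 16 against d 2) and 0 (d 16 against d 9). Whey minus serum, where 7 of the 10 genes were not well above background in serum, had a median of 0.02 after quantile normalization, 0.54 with 75th percentile scaling, 3.36 with spike-ins, 0.36 with normexp and -0.30 to 0.38 without 1 whey array. A change of sign was counted only where the quantile-normalized difference exceeded the SD of the gene within days. Under this rule the sign turned for Aurkb (0.52) and Bub1b (2.23) with spike-ins and for Bub1b (0.081) with normexp. Ccna2 (-0.24), Plk1 (-0.19) and Birc5 (-0.49) were negative after quantile normalization but within that SD, so a change of their sign was not counted. Signals near background limit the d 16 values of all genes except Cdc2 and Plk1.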

Other observations

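The 2 promoter motifs were also counted in the other mitotic and cell cycle genes. Of the 46 genes that fell from d 2 to d 16 and have an entry in the promoter table, 26 (56.5%) held TTTGAA, 31 (67.4%) held CCAAT and 20 (43.5%) held both. Of the 41 tested genes that were not called and have an entry, 11 (26.8%) held TTTGAA, 20 (48.8%) held CCAAT and 5 (12.2%) held both. In all promoters these shares were 18.3%, 37.5% and 7.41%. The lists hold genes picked for their role in mitosis, and the difference between these shares was not tested.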
